A study of Mus musculus with 8 samples.

Results

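Genes that mark B cells and the antibody-secreting plasma cells they give rise to were followed in mouse large bowel mucosa. The members were named by gene symbol: Cd79a, Cd79b, Ms4a1 and Pou2af1 for B cells, and Jchain, Mzb1 and Derl3 for plasma cells. All 7 were found among the 16306 genes that could be named on the array, through 8 probes, and 6 of the 7 were bright enough to be tested. Jchain had 2 probes, and the brighter probe stood for the gene.

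The 8 groups were rectum and middle colon mucosa of IL18ko mice, which lack the gene for the cytokine interleukin 18, and of wild-type (WT) mice, each either after isolation stress or as control. Brothers shared a cage of 5 mice up to an age of 10 to 12 weeks. Then 3 of them were housed alone and killed later, after 16 days by the treatment protocol and after 8 days by the design text, while the 2 controls were killed at the start. Stressed mice were therefore also older than controls. Rectum was the last 7 mm before the anus, and colon was the stretch 2.5 to 3.5 cm from the ileocecum. Every group was 1 array with the joint RNA of 5 mice, so there are no replicates and no value below carries the spread between mice.

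B cells carry the B cell receptor on their surface and in the gut gather in lymphoid follicles, where they can switch to making immunoglobulin A (IgA). Plasma cells have lost most of these surface proteins, fill their cytoplasm with endoplasmic reticulum, and in the lamina propria release IgA joined into dimers by the J chain. The polymeric immunoglobulin receptor of the epithelium then carries those dimers into the lumen. In a tissue extract, fewer cells of a type and less RNA per cell cannot be told apart.

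Between 62.2% and 66.4% of spots lay well above background on the 8 arrays. Levels below are log2 signals minus the 75th percentile of their array, so that 1 unit is a 2-fold difference, and levels of different probes are not compared. Il18 itself matched the labels: it was not above background on the 4 IL18ko arrays, and its mean over the 4 WT arrays was at least 1211-fold higher. All colon arrays were on 1 slide and all rectum arrays on the other slide, and the effects of slide and tissue cannot be told apart.

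The plasma cell genes Jchain and Mzb1 were lower in rectum than in colon, while Derl3 did not pass, and among the B cell genes Ms4a1 was higher and Pou2af1 lower in rectum. Jchain differed by 10.1-fold, Mzb1 by 4.63-fold, Ms4a1 by 3.60-fold and Pou2af1 by 2.29-fold. With normexp background correction the log2 differences of Ms4a1 and Mzb1 were smaller, 1.17 and -1.59, and both still passed. Of the 6 members tested 4 passed an adjusted p of 0.05, with 1 higher and 3 lower in rectum. Among all 12713 genes tested 30.4% passed, 15.1% being higher and 15.3% lower in rectum. Rectum and colon did not overlap for 4 members, and this held for 33.7% of all genes tested. Adjusted p-values for this comparison come from limma on the 4 rectum minus colon differences, adjusted by Benjamini-Hochberg over 26265 probes.

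**Figure D1:**
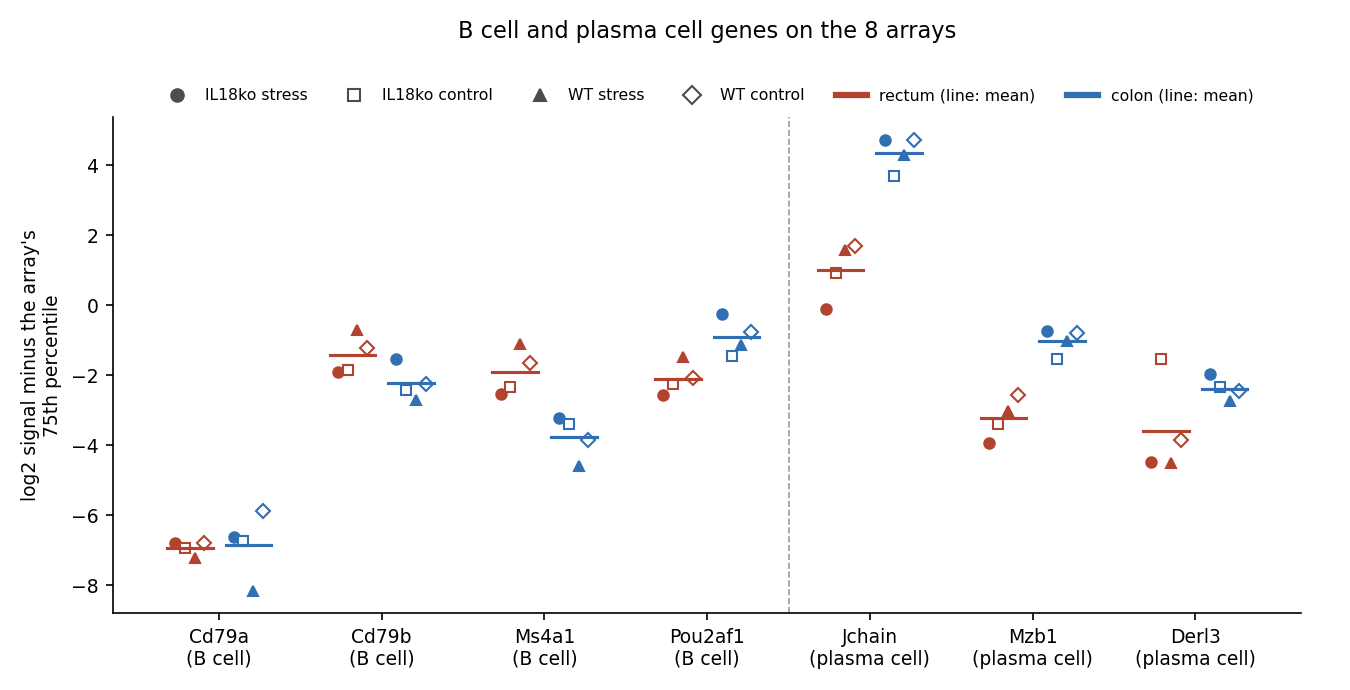
Level of the 7 member genes on the 8 arrays (y axis: log2 signal minus the 75th percentile of the array), rectum left of colon for each gene, with 1 point per array and a line at the mean of 4 arrays. Jchain and Mzb1 lie lower in rectum on every array and Ms4a1 higher, while Cd79a stays near background throughout.

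Jchain encodes the small protein that links IgA into dimers and IgM into pentamers and that the polymeric immunoglobulin receptor recognises. In rectum its level was -0.12 in IL18ko stress, 0.92 in IL18ko control, 1.58 in WT stress and 1.69 in WT control, against 4.71, 3.69, 4.29 and 4.72 in colon of the same groups. The highest rectum array lay 2.00 units under the lowest colon array, with the IL18ko stress rectum the lowest of all 8. The rectum minus colon difference was -3.34 ± 0.35 (SE, n = 4 pairs; limma, adjusted p = 0.000925). The dimmer Jchain probe gave -3.32 ± 0.39 (limma, adjusted p = 0.00147). The 4 pairs ran from -4.84 in IL18ko stress to -2.71 in WT stress.

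Mzb1 encodes a chaperone of the endoplasmic reticulum that helps to assemble and secrete immunoglobulin. Its level in rectum was -3.94 in IL18ko stress, -3.40 in IL18ko control, -3.02 in WT stress and -2.58 in WT control, against -0.73, -1.53, -1.02 and -0.80 in colon of those groups. All rectum arrays were under all colon arrays, and the IL18ko stress rectum was again the lowest. The difference was -2.21 ± 0.25 (SE, n = 4 pairs; limma, adjusted p = 0.00124). This probe was printed 10 times on each array, which gives the only technical error among the members: the SD over its 8 to 10 usable spots was 0.062 to 0.134. That SD covers spots of 1 array and holds no spread between pools or mice.

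Derl3 belongs to the machinery that draws misfolded proteins out of the endoplasmic reticulum for degradation. In rectum it was at -4.49 in IL18ko stress, -1.55 in IL18ko control, -4.51 in WT stress and -3.86 in WT control, against -1.98, -2.35, -2.75 and -2.46 in colon. The rectum arrays of 3 groups were under all colon arrays, but the IL18ko control rectum was the highest of all 8. The difference of -1.22 ± 0.49 did not pass (SE, n = 4 pairs; limma, adjusted p = 0.117). Without the IL18ko control pair it was -1.89 ± 0.26 and passed (limma, adjusted p = 0.00691). Without the IL18ko stress pair it was -0.78 (limma, adjusted p = 0.281), and with normexp background correction -0.52 (limma, adjusted p = 0.234). Jchain and Mzb1 on the IL18ko control rectum array lay between their values on the other rectum arrays.

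Ms4a1 encodes CD20, a surface protein of mature B cells that is lost in plasma cells. Its level in rectum was -2.55 in IL18ko stress, -2.34 in IL18ko control, -1.12 in WT stress and -1.65 in WT control, against -3.23, -3.38, -4.59 and -3.85 in colon. Every rectum array was above every colon array, and the gap was widest where both WT stress arrays are compared (3.47) and smallest in the IL18ko stress pair (0.68). The rectum minus colon difference was 1.85 ± 0.44 (SE, n = 4 pairs; limma, adjusted p = 0.0236). Without the WT control pair it was 1.73 and no longer passed (limma, adjusted p = 0.105).

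Cd79b is a signalling chain of the B cell receptor. It was at -1.93 in IL18ko stress, -1.87 in IL18ko control, -0.72 in WT stress and -1.22 in WT control rectum, against -1.55, -2.43, -2.70 and -2.26 in colon. Rectum and colon overlapped, because the IL18ko stress pair ran the other way (-0.38) from the other 3 pairs (0.56 to 1.98). The difference of 0.80 ± 0.35 did not pass (SE, n = 4 pairs; limma, adjusted p = 0.136). Without the IL18ko stress pair it was 1.20 and passed (limma, adjusted p = 0.0233), and without the WT stress pair it was 0.41 (limma, adjusted p = 0.210).

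Cd79a, the partner of Cd79b in the receptor, was above background on 1 of the 8 arrays, the WT control colon at -5.88, and was not tested. The other arrays gave values not well above background, from -8.16 to -6.62.

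Pou2af1 encodes a coactivator that works with octamer-binding factors at immunoglobulin genes and is made in B cells and plasma cells alike. Although listed with the B cell genes, it was lower in rectum: -2.56 in IL18ko stress, -2.27 in IL18ko control, -1.48 in WT stress and -2.09 in WT control rectum, against -0.26, -1.45, -1.13 and -0.77 in colon. All rectum arrays were under all colon arrays, by 0.03 at the closest. The difference was -1.20 ± 0.30 (SE, n = 4 pairs; limma, adjusted p = 0.0283). The call was lost without the WT control pair (-1.16, limma, adjusted p = 0.116) and without the IL18ko control pair (-1.32, limma, adjusted p = 0.0664).

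**Figure D2:**
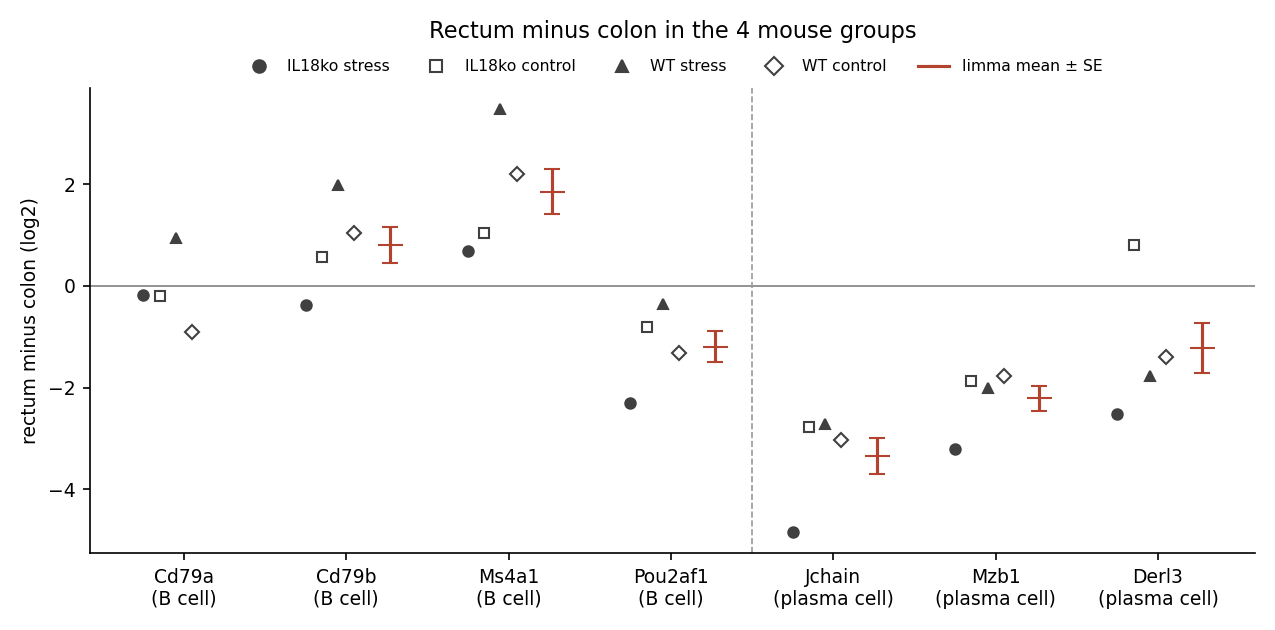
Rectum minus colon difference (y axis, log2) of the 7 member genes in each of the 4 mouse groups, 1 point per pair of arrays, with the limma mean and its standard error beside the points. The 4 pairs lie below 0 for Pou2af1, Jchain and Mzb1 and above 0 for Ms4a1, and the IL18ko control pair of Derl3 (0.80) stands apart from its other pairs.

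In rectum the IL18ko stress array was the lowest and the IL18ko control array the next for Jchain, Mzb1 and Pou2af1, and likewise for Cd79b and Ms4a1. In colon the IL18ko control array was the lowest for Jchain, Mzb1 and Pou2af1, with WT stress next, while WT stress was the lowest for Cd79b and Ms4a1. Over the 8 arrays, after the mean of each tissue was subtracted, Pearson's r was 0.966 for Jchain with Mzb1 and 0.788 for Jchain with Pou2af1. Cd79b and Ms4a1 gave 0.887 and Cd79b with Pou2af1 0.900. Derl3 gave 0.060 with Jchain and 0.004 with Mzb1. Between the B cell and plasma cell genes, Cd79b gave 0.709 with Jchain and 0.650 with Mzb1, and Ms4a1 gave 0.524 and 0.439. These are descriptions over 8 arrays that share slide and scaling.

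The sequence upstream of the gene start is shown for Jchain, with the largest difference, and for Pou2af1 and Derl3, whose windows hold a match to an element read by factors of the unfolded protein response. These windows reach from 250 bases before to 50 bases after the start (RefSeq, build GRCm38.p6) and are printed on the strand of the gene, with matches in capitals. Jchain lies at chr5:88527848-88528147 on the minus strand, Pou2af1 at chr9:51213440-51213739 and Derl3 at chr10:75893148-75893447, both on the plus strand.
Jchain: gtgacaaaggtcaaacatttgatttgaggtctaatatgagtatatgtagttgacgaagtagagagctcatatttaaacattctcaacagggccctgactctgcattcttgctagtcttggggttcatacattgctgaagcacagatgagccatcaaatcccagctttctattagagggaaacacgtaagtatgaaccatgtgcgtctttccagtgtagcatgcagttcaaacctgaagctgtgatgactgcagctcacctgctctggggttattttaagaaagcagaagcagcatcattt
Pou2af1: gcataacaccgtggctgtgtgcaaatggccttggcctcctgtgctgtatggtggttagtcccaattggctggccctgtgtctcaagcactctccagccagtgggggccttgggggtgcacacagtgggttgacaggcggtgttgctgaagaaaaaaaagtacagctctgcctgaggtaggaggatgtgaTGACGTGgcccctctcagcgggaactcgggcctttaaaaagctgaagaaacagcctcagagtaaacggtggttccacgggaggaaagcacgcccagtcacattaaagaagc
Derl3: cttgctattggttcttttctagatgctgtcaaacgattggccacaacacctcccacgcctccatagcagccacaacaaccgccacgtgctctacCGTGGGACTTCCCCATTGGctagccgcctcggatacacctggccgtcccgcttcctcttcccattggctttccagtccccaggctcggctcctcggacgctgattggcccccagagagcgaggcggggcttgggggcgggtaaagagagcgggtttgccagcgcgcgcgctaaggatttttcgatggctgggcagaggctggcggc
The Derl3 window holds the endoplasmic reticulum stress response element, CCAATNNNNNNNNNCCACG, on the minus strand from base -156, where N is any base. This element, bound by the factors ATF6 and XBP1, was found in 39 of 32851 promoter windows of the same length (0.119%) when both strands were searched. The Pou2af1 window holds the core of the unfolded protein response element, TGACGTG, on the plus strand from base -61, overlapping a CCACG on the other strand. That core was found in 2.01% of windows, and neither element was found in the Jchain or Cd79a window. The octamer ATGCAAAT, found in 1.74% of windows, was in none of the 4. Of the other motifs searched, CCACG alone (32.8% of windows) was in the windows of Pou2af1, Derl3 and Cd79a, and CANNTG (72.3%) in all 4. TATAAA (13.6%) and GGAANNGAAA, a joint site of PU.1 and IRF factors (2.72%), were in none of them.

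Other B cell surface and transcription factor genes were more often higher than lower in rectum. Of 13 tested, out of 25 in the list, 4 were higher, 1 was lower and 8 did not pass, with a median difference of 1.04 against 0.05 over all genes tested. Of all genes tested, 15.1% were higher and 15.3% lower in rectum. Fcmr, the receptor for IgM, ran from -2.58 to -1.78 in rectum and from -6.98 to -4.58 in colon, where 3 of 4 arrays were above background, with a difference of 3.31 ± 0.49 (limma, adjusted p = 0.00356). Cxcr5, the chemokine receptor that leads B cells into follicles, ran from -4.20 to -3.11 in rectum and from -5.04 to -4.61 in colon (1.24 ± 0.20, limma, adjusted p = 0.00552). Ebf1, an early B cell transcription factor that stromal cells and adipocytes also make, differed by 1.27 ± 0.28 (limma, adjusted p = 0.0175) and was above background on 2 of 4 colon arrays. Spib, a transcription factor of B cells and also of epithelial M cells, was the one lower gene, from -2.62 to -2.20 in rectum and from -1.21 to -0.90 in colon (-1.30 ± 0.15, limma, adjusted p = 0.00132). Fcrl5, Pax5, Pou2f2 and Cd180 were above background on no array.

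Genes of B cell receptor signalling moved in both directions. Of 16 tested, 4 were higher and 2 lower in rectum, against 15.1% and 15.3% of all genes tested, with a median of 0.13. Prkcb, a kinase downstream of the receptor, had the largest difference, 2.48 ± 0.14 (limma, adjusted p = 7.66e-05), and Pik3ap1, an adaptor for phosphoinositide 3-kinase, differed by 0.96 ± 0.18 (limma, adjusted p = 0.0103). The kinase Syk fell by 0.96 (limma, adjusted p = 0.00339) and the phospholipase Plcg2 fell by 0.94 (limma, adjusted p = 0.000903). Many of these genes act in other cell types of the bowel too.

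Lymphoid follicle and germinal centre genes gave 3 higher, 1 lower and 7 not passing among 11 tested of 17, with a median of 0.54. All genes tested gave 15.1% higher and 15.3% lower. Ccr6, a receptor of B cells and other lymphocytes that enter follicles, was 1.23 ± 0.18 higher in rectum (limma, adjusted p = 0.00388). S1pr2, which holds germinal centre B cells in place, was 0.79 ± 0.15 higher (limma, adjusted p = 0.0105), and Mfge8, made by follicular dendritic cells and by other cells, was 0.84 ± 0.19 higher (limma, adjusted p = 0.0193). Rgs13, a regulator of G protein signals in germinal centre B cells that epithelial tuft cells also make, ran the other way, from -4.60 to -3.88 in rectum and from -0.68 to 0.16 in colon (-3.87 ± 0.26, limma, adjusted p = 0.00016). Gcsam, Mybl1, Ccr7 and Il21 were above background on no array.

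The further plasma cell genes were split. Of 7 tested, 2 were higher and 2 lower in rectum and 3 did not pass, with a median of -0.44. The shares over all genes tested were 15.1% higher and 15.3% lower. Tnfrsf17, the receptor for plasma cell survival factors known as BCMA, ran from -4.78 to -3.76 in rectum and from -3.00 to -1.81 in colon (-1.68 ± 0.34, limma, adjusted p = 0.0127). Xbp1, which drives the secretory programme of plasma cells and of goblet and Paneth cells, fell by 0.44 (limma, adjusted p = 0.0218). Eaf2, an elongation factor partner, was 0.48 ± 0.11 higher (limma, adjusted p = 0.0211), and Cd38, a surface enzyme of many cell types, was 0.41 ± 0.10 higher (limma, adjusted p = 0.0208).

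Genes of the secretory machinery of the endoplasmic reticulum, which plasma cells share with other secretory cells, were lower in rectum in 12 of 20 cases. None was higher, and the median was -0.62, while 15.3% of all genes tested were lower and 15.1% higher. The peptidyl-prolyl isomerase Fkbp11 ran from -1.21 to -0.64 in rectum and from 1.40 to 2.32 in colon (-2.82 ± 0.13, limma, adjusted p = 4e-05). The disulfide isomerase Txndc5 fell by 1.12 (limma, adjusted p = 0.00073), the cargo receptor Lman1 fell by 0.98 (limma, adjusted p = 0.0101) and the chaperone partner Sdf2l1 fell by 0.92 (limma, adjusted p = 0.00164). Goblet cell genes fell on the same arrays: 5 of 7 were lower, none was higher, and the log2 of their summed level (signal relative to the 75th percentile) was 9.54 to 9.81 in rectum and 10.2 to 10.3 in colon. The part of goblet cells in the secretory machinery difference was not tested.

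Of 15 tested genes for IgA transport, homing and plasma cell survival, 3 were higher and 2 lower in rectum, with a median of 0.06. Among all genes tested 15.1% were higher and 15.3% lower. Aldh1a2, an enzyme that makes retinoic acid, ran from -4.49 to -2.89 in rectum and from 0.04 to 0.82 in colon (-3.93 ± 0.25, limma, adjusted p = 0.00012). Tnfsf13b, the survival factor BAFF, was 1.08 ± 0.13 higher in rectum (limma, adjusted p = 0.0017), while Tnfsf13, the related factor APRIL, fell by 0.45 (limma, adjusted p = 0.0136). Tgfb1, the cytokine that directs the switch to IgA, was 0.52 ± 0.14 higher (limma, adjusted p = 0.0367), and Ccl28, a chemokine that attracts IgA plasma cells, was 0.46 ± 0.11 higher (limma, adjusted p = 0.025). Pigr, the epithelial receptor that carries IgA, differed by 0.06 ± 0.22 and did not pass (limma, adjusted p = 0.879). Il5, Il6 and Il10 were above background on no array, and no probe was named here as a gene for an immunoglobulin chain, so IgA itself was not measured.

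**Figure D3:**
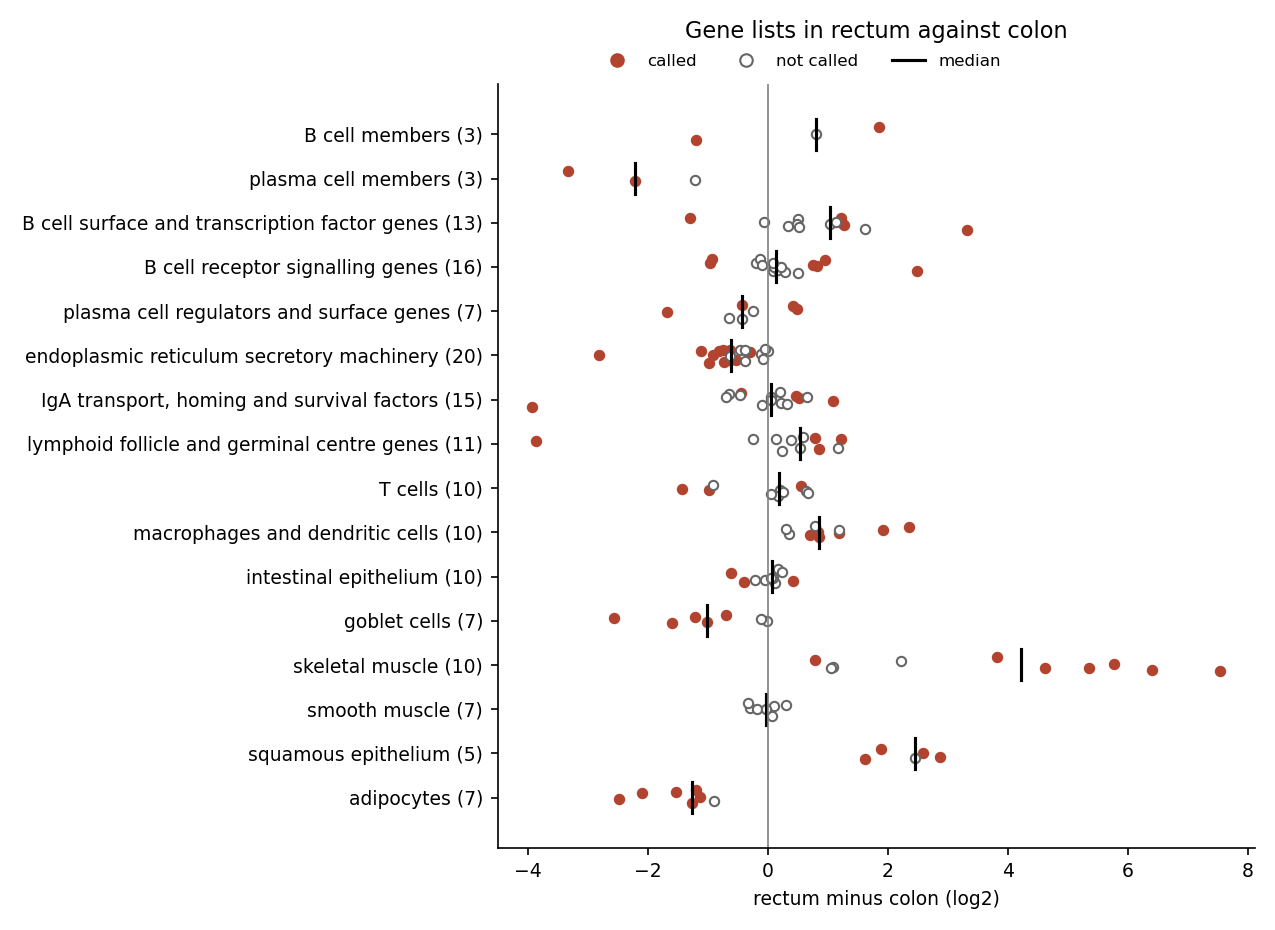
Rectum minus colon difference (x axis, log2) of each tested gene in the 2 member groups and 14 further lists, with the number of tested genes in brackets, filled points for genes that passed an adjusted p of 0.05 and a black line at the list median. The endoplasmic reticulum list has a median of -0.62, the B cell surface and transcription factor list one of 1.04, and the skeletal muscle list one of 4.21.

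Markers of other tissue layers differed between the same arrays. The counts below stand beside 15.1% of all genes tested that were higher and 15.3% that were lower in rectum. Skeletal muscle genes were higher in rectum in 7 of 10 cases and lower in none. Of the 7, Myh4, Tnnt3 and Mb were above background on only 1 colon array each, so they were tested mainly through their rectum signal. The log2 of the summed level of the skeletal muscle genes was 2.84 to 7.25 in rectum and 1.78 to 2.62 in colon. It was highest on the IL18ko control rectum array, where Derl3 stood apart. Squamous epithelium genes were higher in 4 of 5 cases (0.47 to 1.80 in rectum, -1.10 to -0.80 in colon; Sprr1b above background on no array, and Col17a1, 1 of the 4, on no colon array, so that it was tested only through its rectum signal), and adipocyte genes lower in 6 of 7 (3.41 to 5.14 in rectum, 4.74 to 5.79 in colon). Macrophage and dendritic cell genes were higher in 6 of 10 (5.28 to 6.48 in rectum, 4.74 to 5.43 in colon). T cell genes gave 1 higher and 2 lower of 10 (1.29 to 1.87 in rectum, 1.06 to 1.74 in colon; Cd28 and Icos above background on no array). Intestinal epithelium gave 1 higher and 2 lower of 10 (10.5 to 10.7 in rectum, 10.5 to 10.6 in colon), and smooth muscle none of 7 (8.77 to 9.31 in rectum, 8.92 to 9.5 in colon). The part of these layers in the differences of the B cell and plasma cell genes was not tested.

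No member was called between IL18ko and WT in the fit to all 8 arrays with terms for tissue, genotype and stress. By limma 0 of 6 passed, against 0.134% of all genes tested. At an unadjusted p under 0.05 there were 5372 of 26265 probes and 0 of 6 members. Jchain, by its brighter probe, and Mzb1 came nearest. The dimmer Jchain probe gave -0.45 ± 0.37 (limma, adjusted p = 0.532). Jchain was lower in IL18ko in 3 of 4 pairs, by 1.70 on the log2 scale in stress rectum, 0.77 in control rectum and 1.03 in control colon, and 0.43 higher in stress colon, giving -0.77 ± 0.33 (SE; limma, adjusted p = 0.248). Mzb1 gave -0.92, -0.82 and -0.73 in the same 3 pairs and 0.29 in stress colon, together -0.55 ± 0.25 (SE; limma, adjusted p = 0.267). Derl3 was higher in IL18ko in 4 of 4 pairs, from 0.02 in stress rectum to 2.31 in control rectum, with 0.80 ± 0.49 (SE; limma, adjusted p = 0.391). These 3 genes were called when the fit used the mean of both tissues in each mouse group, which leaves 1 residual degree of freedom: the adjusted p was then 0.000813 for Jchain, 0.0268 for Mzb1 and 0.0141 for Derl3. That fit called 3078 of 26265 probes, where the fit to 8 arrays called 32.

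The other 3 tested members were near 0 for genotype over both tissues: Cd79b -0.22 ± 0.33, Ms4a1 -0.07 ± 0.41 and Pou2af1 -0.27 ± 0.29 (SE; limma, adjusted p of 0.752, 0.941 and 0.640). Pou2af1 lies on chromosome 9, as does Il18, with 16 named genes of the array between them. None of the 15 tested among those was called for genotype. None of the tested genes in the 6 lists of B cell, plasma cell, secretory, IgA and follicle genes was called for genotype or for stress either, with list medians between -0.08 and 0.09 for genotype and between -0.10 and 0.18 for stress.

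Single pairs of arrays showed larger genotype differences, in opposite directions in the tissues under stress. A gene counted here if above background on at least 1 of the 2 arrays compared. In stress rectum 4 of the 6 measured members differed at least 2-fold between IL18ko and WT, against 9.86% of genes: Cd79b by -1.21, Ms4a1 by -1.43, Pou2af1 by -1.08 and Jchain by -1.70. In stress colon 2 of 6 did, against 5.66% of genes, Cd79b by 1.15 and Ms4a1 by 1.36. In control rectum Derl3 alone did (1 of 6, against 4.69% of genes). In control colon Jchain alone did (1 of 7 measured, against 3.44% of genes, with Cd79a above background on the WT array only). By the dimmer Jchain probe the control colon levels were 2.53 in IL18ko and 3.10 in WT, under a 2-fold difference. These comparisons set 1 array against 1 array and carry no test, and pairs that share an array are not independent.

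The difference between tissues in the genotype effect was tested over 8 arrays. It was -1.97 ± 0.43 for Ms4a1 (SE; limma, adjusted p = 0.832) and -1.42 ± 0.47 for Cd79b (SE; limma, adjusted p = 0.832). No gene of the array was called (0% of 12713), with 752 of 26265 probes and 2 of 6 members at an unadjusted p under 0.05. Ms4a1 was called only when a control array was left out, at -2.42 for a colon array and -2.35 for a rectum array. The value was the same whichever genotype that control array had. In such a fit the genotype effect in that tissue rests on the stress pair alone.

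Isolation stress called no member and no gene of the array in limma (0% of 12713 genes). At an unadjusted p under 0.05 there were 898 of 26265 probes and 0 of 6 members. The stress minus control differences over both tissues and genotypes were 0.22 ± 0.33 for Cd79b, -0.06 ± 0.41 for Ms4a1 and 0.29 ± 0.29 for Pou2af1. They were -0.14 ± 0.33 for Jchain, -0.10 ± 0.25 for Mzb1 and -0.88 ± 0.49 for Derl3 (SE; limma, adjusted p from 0.899 to 0.978 over the 6 genes).

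Single pairs again ran in both directions. In IL18ko rectum 2 of 6 members differed at least 2-fold after stress, against 2.64% of genes, Jchain by -1.04 and Derl3 by -2.94. In IL18ko colon 2 of 6 did, against 2.79% of genes, Pou2af1 by 1.20 and Jchain by 1.03. In WT rectum none of 6 did, against 5.6% of genes. In WT colon 1 of 7 measured members did, against 3.26% of genes, Cd79a by -2.28. Cd79a was above background there on the control array only, so the control level is known only to be at least 1.52-fold higher. The Derl3 value rests on the IL18ko control rectum array, where its level stood apart. By the dimmer Jchain probe the IL18ko colon levels were 3.51 after stress and 2.53 in control, slightly under a 2-fold difference.

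The stress effect did not differ between the tissues by test for any gene of the array (0% of 12713; 252 of 26265 probes and 1 of 6 members at an unadjusted p under 0.05). That member was Derl3, at -1.84 ± 0.71 (SE; limma, adjusted p = 1). Nor was a difference in the stress effect between IL18ko and WT called for any gene (0% of 12713; 328 of 26265 probes and 0 of 6 members at an unadjusted p under 0.05).

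**Figure D4:**
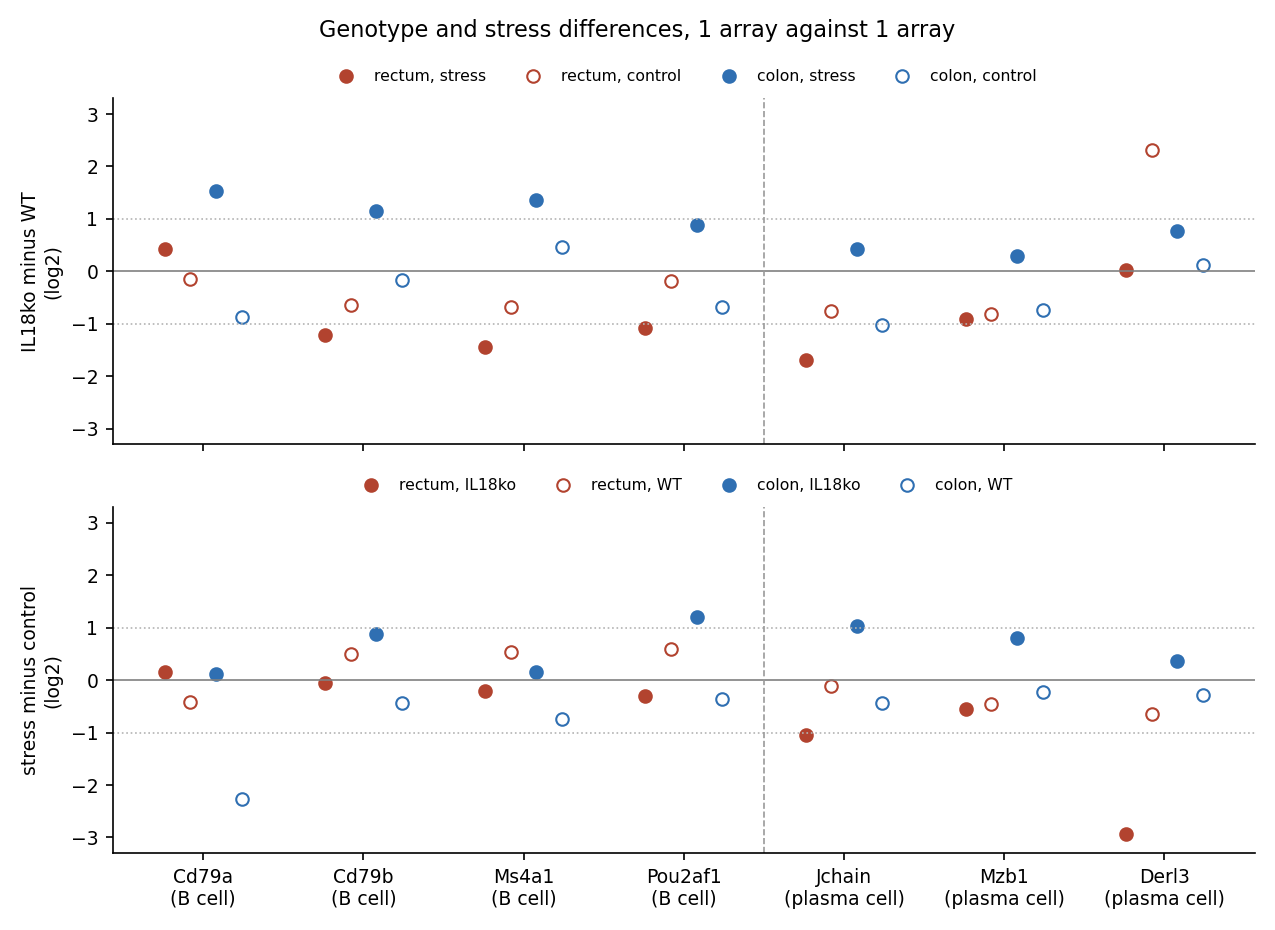
Differences of 1 array against 1 array (y axes, log2) for the 7 member genes: IL18ko minus WT above and stress minus control below, rectum pairs left of colon pairs, with dotted lines at a 2-fold difference. Under stress the IL18ko minus WT values of Cd79b, Ms4a1 and Pou2af1 lie below 0 in rectum and above 0 in colon.

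Genes with patterns most like the members were listed as a description over 8 arrays. The mean of the 4 B cell genes, of which Cd79a is mostly background, was most like Map4k1, Gtf2a1l, Zfp345, Akirin1 and Snapc1 (Pearson's r from 0.924 to 0.952). That mean joins Ms4a1 and Pou2af1, whose rectum minus colon differences were opposite (1.85 and -1.20). The 5 genes differed between tissues by 0.02 to 0.52. After the mean of each tissue was subtracted, the B cell mean was most like Samsn1, an adaptor of lymphocytes, then Akirin1, Gtf2a1l, Nol7 and Mesp2 (0.962 to 0.990). The mean of the plasma cell genes was most like Zmat1, Zfp78, Dmp1, Tgfbi and Megf9 (0.962 to 0.985), and after subtraction Olfr1317, Wdpcp, Zmat1, Lpar4 and Zfp78 (0.872 to 0.967). In that mean Derl3 had the largest SD within rectum, 1.40 against 0.83 for Jchain and 0.58 for Mzb1. Jchain alone was most like other genes, Ccdc43, Msrb2, Selenom, Mydgf and Mpp6 (0.982 to 0.993).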

How the data were processed

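Each of the 8 samples was 1 one-colour Agilent whole mouse genome array, hybridised with RNA pooled from 5 mice. Per the file headers, the authors deposited the background-corrected signal intensity of each spot from Feature Extraction 9.5.1.1; per the labels, their value table holds a ratio to the WT control colon array, used here as an alternative. Control and outlier spots were left out and the rest averaged per probe on the log2 scale, minus the 75th percentile of the array. Probes were named through transcript accessions (22850 of 40963), and the brightest probe stood for its gene. Tests took the probes well above background on 4 or more arrays, and single pairs counted probes above background on 1 of 2 arrays.

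Tests used limma 3.58.1 (R 4.3.3) with a variance trend and Benjamini-Hochberg adjustment over all 26265 probes tested. Tissue was tested on the 4 rectum minus colon differences, which assumes that both pools of a mouse group match; the labels do not say that they came from the same mice. Genotype and stress were tested together over 8 arrays with a tissue term. Genotype by tissue and stress by tissue were tested in the same fit, which held both interactions and left 2 residual degrees of freedom. Stress by genotype had its own fit, with 3 residual degrees of freedom. P-values for tissue thus measure how far the rectum minus colon difference varied between the 4 mouse groups. Those of the other tests measure what each fit left over, with both tissues of a mouse group taken as independent. No group has replicate pools, so no p-value measures a spread between them. The array number limits the precision, and the array position within a slide went with the mouse group. The fits were also run on simulated data with noise independent between arrays, which cannot check the pairing or independence assumed here.

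The 7 members, the 14 further lists and the tests were chosen with earlier results of these data known. Up to 4 genes were named per list, those called between tissues with the largest difference, and 5 genes by likeness. Pigr and Tnfsf13 were picked by name later, with their values known, and 1 called list gene is not reported here. The alternatives comprised normexp background (offset 50), quantile normalization, centring on the median, the deposited ratios, other filters and designs, and leaving out arrays. Feature annotations of the array refer to an older build, so array positions are not given. Figures used matplotlib 3.10.9, and tables pandas 2.3.3.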

Additional observations from a re-analysis of the deposited data

Results flagged for a closer look

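For 4 results, single pairs of arrays moved at least 1.5-fold one way in rectum and at least 1.5-fold the other way in colon. Each side rests on 1 array against 1 array, so the differences of these pairs were not tested. Under stress, the IL18ko minus WT difference of Ms4a1 was -1.43 in rectum and 1.36 in colon, which are -2.79 apart. For Cd79b the values under stress were -1.21 in rectum and 1.15 in colon, -2.36 apart. For Pou2af1 they were -1.08 in rectum and 0.88 in colon, -1.96 apart. The stress minus control difference of Jchain in IL18ko mice was -1.04 in rectum and 1.03 in colon, -2.07 apart. By the dimmer Jchain probe the IL18ko levels after stress and in control were -1.51 and -0.28 in rectum, and 3.51 and 2.53 in colon. The 3 genotype results rest on the same 4 stress arrays.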

How the results depend on the processing

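The calls of Jchain and Mzb1 between tissues held under all 13 alternatives, with adjusted p of 5.6e-05 to 0.00711 and 0.000428 to 0.00691 (limma). Leaving out 1 of the 4 pairs moved the number of members called between tissues from 4 to between 2 and 5, and probes called from 7220 to between 3509 and 10737; the 3 pairs left have fewer degrees of freedom. For genotype, 3 members were called with the mean of both tissues per mouse group. Probes called for genotype numbered 32, against 19 without the variance trend, 61 with median centring, 79 with quantile normalization, 189 with the deposited ratios, 3078 with tissue means, and 6 to 3616 without 1 array. For genotype by tissue, 0 to 1 members and 67 to 1882 probes were called without 1 array, and 6 to 67 probes for stress by tissue; for stress, 23 probes were called with tissue means. The causes were not tested. The stress difference turned to 0.048 for Ms4a1 and 0.016 for Mzb1 with normexp, chosen after seeing the data to leave out probes far under local background; plain normexp, distorted by those probes, is not given. Without 1 array the genotype difference lay between -0.56 and 0.030 for Cd79b, -0.49 and 0.32 for Ms4a1, -0.59 and -0.030 for Pou2af1, -1.17 and -0.42 for Jchain, -0.85 and -0.35 for Mzb1, and 0.20 and 1.23 for Derl3. The stress difference lay between -0.12 and 0.56 for Cd79b, -0.46 and 0.35 for Ms4a1, -0.033 and 0.54 for Pou2af1, -0.55 and 0.20 for Jchain, -0.41 and 0.088 for Mzb1, and -1.28 and -0.27 for Derl3. A slide block was not run, since slide and tissue are the same. Cd79a was not well above background on 7 of 8 arrays, which leaves its differences unmeasured apart from the bound given for WT colon.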
